A study of Mus musculus with 4 samples.

Results

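MicroRNAs (miRNAs) of 3 families, miR-10, miR-196 and miR-615, are encoded inside the Hox gene clusters, and 7 of their mature forms were followed in small RNA libraries of the mouse aorta: miR-10a-5p, miR-10a-3p, miR-10b-5p, miR-10b-3p, miR-196a-5p, miR-196b-5p and miR-615-3p. They were taken by name and genomic position, though with earlier results of these data known, and are 7 of 1152 listed entries. All 7 reached a mean of at least 1 count per 1000000 reads (CPM), as did 479 entries in all. There were 2 libraries labelled CKD (chronic kidney disease) and 2 labelled Sham, all from wild type C57BL/6 mice aged 12 weeks with no transgene or other allele named. In the described surgery both ends of the left kidney were cut away and, after 1 week, the right kidney was taken out. A diet with 2% phosphate and drinking water with 0.45% NaCl followed for 4 weeks. The labels attach this same text to the CKD and to the Sham libraries, so the sources used here do not give the surgery and diet of the Sham mice. RNA of 4 samples was pooled for each library, and the labels do not say which animals entered which pool, so p-values measure the spread between these libraries, which may be technical.

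Hox genes encode transcription factors that set position along the body axis, and adult vessel cells are known to keep a Hox pattern from the embryo. The miR-10 genes lie near the Hox4 genes and the miR-196 genes near the Hox9 and Hox10 genes, while miR-615 lies in a Hoxc5 intron. A miRNA pairs through its seed, the bases after the first one at its 5′ end, with sites in messenger RNAs and lowers their output. In mouse, miR-196 is known to direct the cutting of Hoxb8 messenger RNA, and miR-10a is known from pig and human endothelial cells as a brake on inflammatory signalling. Each hairpin precursor can give a 5p and a 3p product, and usually 1 of them accumulates while the other is mostly degraded.

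The mature sequences are shown because the families are defined by them and because close relatives differ at so few bases that the counting can mix them. They come from RefSeq on GRCm38.p6, where 7 of 7 members were matched, and capitals mark the seed, bases 2 to 8 from the 5′ end.
miR-10a-5p: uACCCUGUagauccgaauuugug
miR-10b-5p: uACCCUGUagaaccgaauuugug
miR-10a-3p: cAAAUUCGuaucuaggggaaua
miR-10b-3p: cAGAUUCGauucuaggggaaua
miR-196a-5p: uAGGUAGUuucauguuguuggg
miR-196b-5p: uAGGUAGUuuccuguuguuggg
miR-615-3p: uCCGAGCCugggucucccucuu
let-7a-5p: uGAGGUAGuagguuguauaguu

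The 5p forms of miR-10a and miR-10b share their seed and differ at 1 of 23 bases, U12A, with the miR-10a base first and positions counted from 1 at the 5′ end. The 5p forms of miR-196a and miR-196b share another seed and differ at 1 of 22 bases, A12C, with the miR-196a base first. The 3p forms of miR-10a and miR-10b differ at 3 bases, A3G, U9A and A10U, the first of which is in the seed. miR-615-3p shares its seed with none of the other members. The miR-196 seed AGGUAGU also occurs in let-7a-5p, but starts there at base 3 and not at base 2, so the seeds are shifted by 1 base. The sources used here do not say how reads matching several miRNAs were counted, so the split between miR-10a and miR-10b, and between miR-196a and miR-196b, rests on that 1 base.

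The genes lie in all 4 mouse Hox clusters (GRCm38, annotation GENCODE M21). In the HoxB cluster, Mir10a is at chr11:96317165-96317274 on the plus strand, in the interval between Hoxb5 and Hoxb4, with Hoxb4 starting 992 bases away, and no annotated transcript on its strand covers it. Mir196a-1 is at chr11:96265164-96265265 on the plus strand between Hoxb13 and Hoxb9, 51.9 kb from Mir10a, also outside any annotated transcript of its strand. In the HoxC cluster, Mir196a-2 is at chr15:102973350-102973434 on the plus strand, between Hoxc10 and Hoxc9 and inside an intron of a long Hoxc5 gene model. Mir615 is at chr15:103014910-103015001 on the plus strand in an intron of Hoxc5, 41.5 kb from Mir196a-2. In the HoxD cluster, Mir10b is at chr2:74726070-74726137 on the plus strand in introns of the Hoxd3 and Hoxd4 gene models. In the HoxA cluster, Mir196b is at chr6:52230081-52230165 on the minus strand and overlaps an exon of Hoxa9, with Hoxa10 at a distance of 1031 bases. miR-196a-5p is therefore the product of 2 genes in different clusters, whose reads cannot be told apart.

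The hairpins of Mir10a and Mir10b are shown because both of their arms were measured. Capitals mark the 5p arm and then the 3p arm, in RefSeq's sequence on GRCm38.p6.
Mir10a: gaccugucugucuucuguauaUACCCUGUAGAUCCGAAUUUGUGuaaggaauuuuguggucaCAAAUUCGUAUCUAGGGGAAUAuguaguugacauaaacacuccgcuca
Mir10b: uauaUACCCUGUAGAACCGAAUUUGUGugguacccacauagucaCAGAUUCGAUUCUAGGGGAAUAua

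CKD libraries held 17532748 and 16658810 reads and Sham libraries 17520690 and 16878392 reads, as recovered from the values. A listing at 0 stands for 0 reads, and the floor, set at 3 reads, is worth 0.171 to 0.180 CPM. CPM is a share of a fixed total, and 1 entry held much of that total: miR-143-3p, a smooth muscle miRNA, had 411359 and 407824 CPM in CKD aortas, against 798183 and 725182 CPM in Sham aortas. The median of all 479 tested entries was 1.34 higher in CKD on the log2(CPM + 1) scale. Each member is therefore given on 2 scales, the deposited CPM and the CPM after TMM scaling, which moves that median to -0.00 on the premise that most entries did not change. Differences on log2(value + 1) understate the change of low entries.

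miR-10a-5p, the main product of the HoxB-encoded Mir10a, was by far the most abundant member, with 7415.67 and 9298.08 CPM in CKD aortas, against 3169.11 and 4448.82 CPM in Sham aortas. Both CKD libraries were above both Sham libraries, and the means were 8357 ± 1331 CPM in CKD and 3809 ± 905 CPM in Sham (SD, n = 2 each), a 2.19-fold higher mean in CKD. Among all entries its rank by abundance was 26 and 18 in CKD and 18 and 17 in Sham. Its 1-base variant miR-10b-5p, from the HoxD cluster, had 838.15 and 941.9 CPM in CKD and 368.02 and 503.37 CPM in Sham. These groups did not overlap either, and the mean was 2.04-fold higher in CKD (890 ± 73.4 CPM in CKD against 436 ± 95.7 CPM in Sham, SD, n = 2 each). Ranked with all entries, miR-10b-5p held places 55 and 57 in CKD and places 50 and 51 in Sham.

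The 3p forms of both miR-10 genes were the minor products of their hairpins. miR-10a-3p had 63.02 and 62.79 CPM in CKD, against 15.12 and 21.21 CPM in Sham. Both CKD libraries were far above both Sham libraries, and of the 7 members it had the largest fold between means, 3.46-fold (62.9 ± 0.163 CPM in CKD against 18.2 ± 4.31 CPM in Sham, SD, n = 2 each). miR-10b-3p had 5.87 and 4.08 CPM in CKD and 1.77 and 1.72 CPM in Sham, from 103 and 68 reads in CKD and 31 and 29 reads in Sham. Its groups did not overlap, at a 2.85-fold higher mean in CKD. At such counts the Wilson 95% interval of 1 library is wide, from 4.84 to 7.12 CPM in CKD 1 and from 1.25 to 2.51 CPM in Sham 1. These intervals cover counting error only, since reads amplified without molecular identifiers are not independent molecules.

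miR-196a-5p, made from 1 gene in HoxB and 1 in HoxC, went the other way. It had 2.45 and 2.28 CPM in CKD aortas, against 5.65 and 5.10 CPM in Sham aortas, from 43 and 38 reads in CKD and 99 and 86 reads in Sham. Both CKD libraries were below both Sham libraries, and the mean was 2.27-fold lower in CKD (2.37 ± 0.120 CPM in CKD against 5.38 ± 0.389 CPM in Sham, SD, n = 2 each). The Wilson intervals of the CKD libraries reached up to 3.30 and 3.13 CPM, below those of the Sham libraries, which started at 4.64 and 4.13 CPM. Its HoxA-encoded relative miR-196b-5p had 10.95 and 11.77 CPM in CKD, against 11.87 and 12.09 CPM in Sham. The CKD values were just under the Sham values with no overlap, but the means, 11.4 ± 0.580 in CKD and 12.0 ± 0.156 CPM in Sham, were within the counting error of single libraries, such as 10.2 to 13.5 CPM in CKD 2.

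miR-615-3p, read from the Hoxc5 intron, had 10.27 and 6.36 CPM in CKD, against 6.73 and 7.23 CPM in Sham. The CKD libraries lay on either side of the Sham libraries, so the groups overlapped, with means of 8.32 ± 2.76 CPM in CKD and 6.98 ± 0.354 CPM in Sham (SD, n = 2 each). The CKD 1 value had a Wilson interval of 8.87 to 11.9 CPM and the CKD 2 value one of 5.26 to 7.70 CPM, so the CKD libraries differed from each other by more than counting error. For the miR-196 and miR-615 hairpins the opposite arms were at the edge of detection. miR-196a-1-3p had 8 and 3 reads in CKD and 0 and 2 reads in Sham, and miR-615-5p had 0 reads in both CKD libraries and 2 reads in each Sham library. No library held more than 3 reads of miR-196b-3p or more than 1 read of miR-196a-2-3p.

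**Figure D1:**
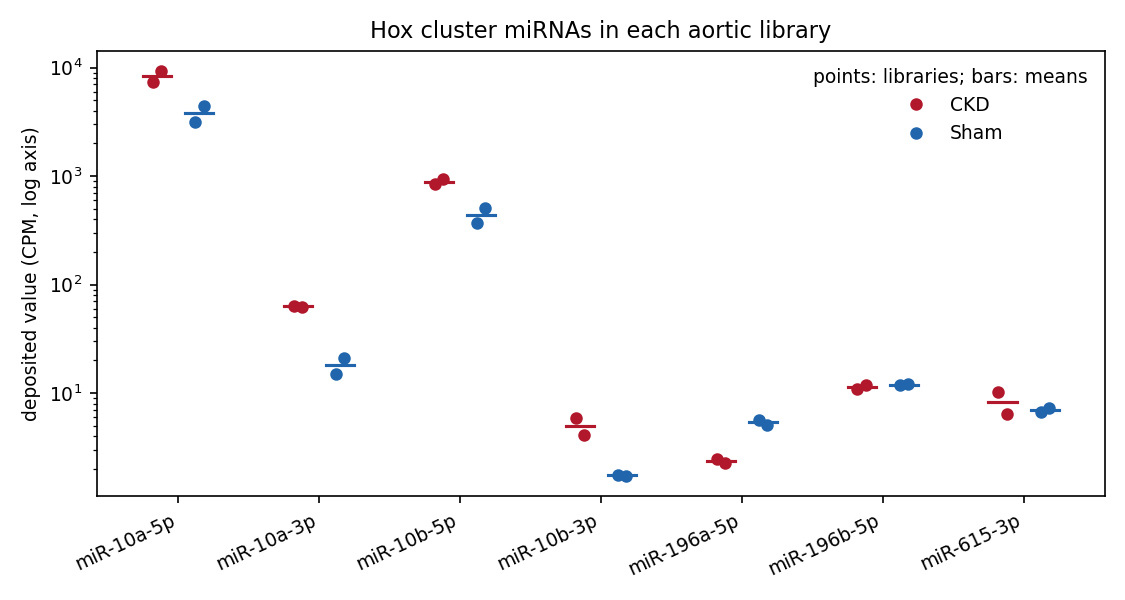
Deposited values in CPM (log axis) of the 7 members, with CKD libraries left of Sham libraries, a point for each library and a bar for each group mean. The 4 miR-10 entries are higher in both CKD libraries, miR-196a-5p is lower, at 2.45 and 2.28 CPM in CKD against 5.65 and 5.10 CPM in Sham, and miR-196b-5p and miR-615-3p have close means.

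The order of the levels was the same in both groups for the 3 abundant members, miR-10a-5p, miR-10b-5p and miR-10a-3p, which were separated by gaps far larger than their spread. Of the member reads, miR-10a-5p held 88.8% and 90.03% in CKD and 88.6% and 89.0% in Sham, and miR-10b-5p held 10.0% and 9.12% in CKD and 10.3% and 10.1% in Sham. Below them came miR-196b-5p and miR-615-3p in both groups. In CKD 1 these neighbours did not differ beyond counting error, with Wilson intervals of 9.51 to 12.6 and 8.87 to 11.9 CPM. The last places were exchanged: in CKD miR-10b-3p stood above miR-196a-5p, and in Sham miR-196a-5p stood above miR-10b-3p. Levels are compared here as read counts of sequences of 22 or 23 nucleotides, and adaptor ligation is known to capture some sequences better than others.

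In the limma fit over all 479 entries on the deposited scale, all 4 miR-10 members passed the threshold upward, miR-196a-5p passed it downward and the other 2 members did not pass. The same fit called 82.9% of all tested entries higher and 1.04% lower in CKD, so the 4 upward calls are near the background while a downward call was rare. Both CKD libraries were above both Sham libraries in 91.2% of the tested entries and below both in 1.46% of them, against 4 and 2 of the 7 members. The log2 difference was 1.14 (SE 0.32, limma adjusted p = 0.0073) for miR-10a-5p and 1.76 (SE 0.36, limma adjusted p = 0.0018) for miR-10a-3p. It was 1.04 (SE 0.40, limma adjusted p = 0.029) for miR-10b-5p and 1.11 (SE 0.30, limma adjusted p = 0.0059) for miR-10b-3p. Of these miR-10 members, only miR-10a-3p exceeded the median of all tested entries, 1.34, and the median over the 7 members was 1.04. miR-196a-5p fell by 0.92 on the log2 scale (SE 0.28, limma adjusted p = 0.011), and only 4 of the 479 entries had a lower difference. The differences of miR-196b-5p, -0.07 (SE 0.30, limma adjusted p = 0.82), and miR-615-3p, 0.19 (SE 0.31, limma adjusted p = 0.56), did not pass, yet they were the 11th and 21st lowest of 479. Leaving out 1 library leaves a group with 1 library, assumed to vary like the other group, and fewer entries were then called in all: 137 of 458 without CKD 1 and 247 of 459 without CKD 2, against 402 of 479. Without CKD 1 no member was called, and without CKD 2 miR-10a-3p and miR-10b-3p were, but without CKD 1 the differences were of similar size, at 1.31 for miR-10a-5p, 1.75 for miR-10a-3p, 1.13 for miR-10b-5p, 0.89 for miR-10b-3p and -0.96 for miR-196a-5p.

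After TMM scaling no member was called higher, where 1.88% of all entries were, and 2 members were called lower, where 5.85% of all entries were. miR-196a-5p had 1.35 and 1.37 scaled CPM in CKD, against 11.8 and 7.33 scaled CPM in Sham, and fell by 2.13 on the log2(value + 1) scale (SE 0.25, limma adjusted p = 0.020). The added 1 weighs on values this low: the mean scaled CPM, 1.36 in CKD and 9.57 in Sham, differ 7.01-fold. miR-196b-5p had 6.05 and 7.09 scaled CPM in CKD, against 24.8 and 17.4 scaled CPM in Sham, and fell by 1.53 on the log2(value + 1) scale (SE 0.21, limma adjusted p = 0.033). Both miR-196 members, which share 1 seed, were thus below the shift that most miRNAs shared. miR-615-3p had 5.68 and 3.83 scaled CPM in CKD and 14.1 and 10.4 scaled CPM in Sham, and its difference of -1.21 (SE 0.24, limma adjusted p = 0.059) did not pass. With 1 library left out, the difference stayed between -2.49 and -1.94 for miR-196a-5p and between -1.78 and -1.33 for miR-196b-5p. The limma adjusted p then ran from 0.045 to 0.18 and from 0.065 to 0.21, in fits that called 0 to 7 entries in all. Without the filter on low values neither call held (limma adjusted p = 0.053 for miR-196a-5p and 0.072 for miR-196b-5p).

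On the TMM scale the 3p forms of miR-10 stayed close to the shared shift, and the 5p forms were below it. Of the 479 entries, 91 had a lower difference than miR-10a-5p and 70 a lower one than miR-10b-5p. The log2 difference was -0.44 (SE 0.18, limma adjusted p = 0.23) for miR-10a-5p, with 4100 and 5601 scaled CPM in CKD and 6621 and 6394 in Sham. For miR-10b-5p it was -0.54 (SE 0.15, limma adjusted p = 0.11), with 463 and 567 scaled CPM in CKD and 769 and 723 in Sham. Both 5p forms were below all Sham values in both CKD libraries but did not pass the test. The 3p forms were nearer to no difference, at 0.22 (SE 0.12, limma adjusted p = 0.33) for miR-10a-3p and -0.08 (SE 0.23, limma adjusted p = 0.86) for miR-10b-3p. The sign for miR-10a-5p and miR-10b-5p is thus opposite on the 2 scales. Over the 7 members the median was -0.54 on the TMM scale, beside -0.00 over all tested entries.

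**Figure D2:**
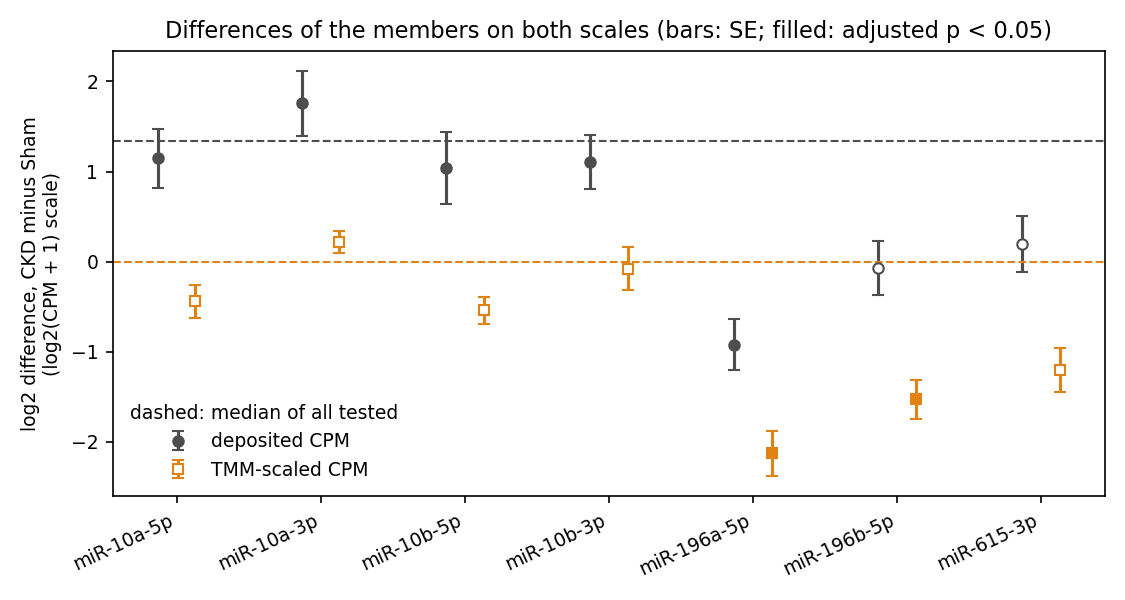
Log2 differences, CKD minus Sham, of the 7 members on the deposited scale (grey circles) and after TMM scaling (orange squares), with SE bars, filled symbols for a limma adjusted p below 0.05 and dashed lines at the median of all tested entries. miR-196a-5p is below 0 on both scales, at -0.92 and -2.13. The miR-10 members are nearer to the dashed line of each scale than miR-196a-5p is. Of them, miR-10a-5p, miR-10b-5p and miR-10b-3p are below that line on both scales.

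**Figure D3:**
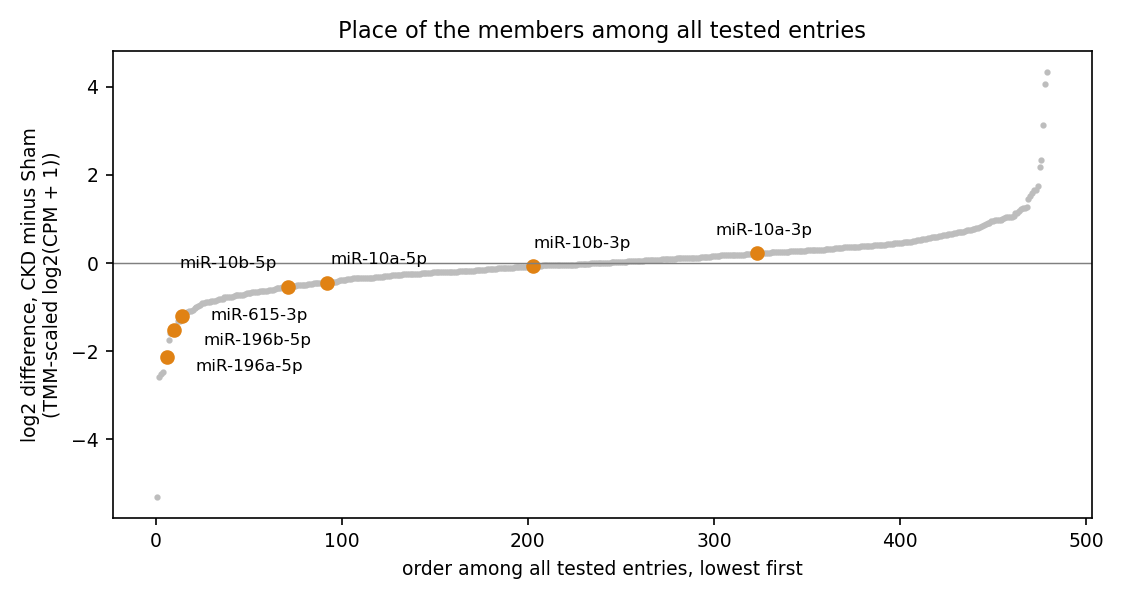
Log2 differences, CKD minus Sham, of all 479 tested entries after TMM scaling (grey), in order from the lowest, with the 7 members in orange. The 2 miR-196 entries and miR-615-3p are at the low end, with 5, 9 and 13 entries below miR-196a-5p, miR-196b-5p and miR-615-3p.

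Together the 7 members had 8346 and 10327 CPM in CKD, against 3578 and 4999.54 CPM in Sham. Both CKD libraries were higher, with means of 0.934 ± 0.140% of all reads in CKD and 0.429 ± 0.1005% in Sham (SD, n = 2 each), a 2.18-fold difference. An exact two-sided permutation test gave p = 0.333, the smallest that 2 against 2 libraries allow. Of the reads other than miR-143-3p, the members held 1.42% and 1.74% in CKD and 1.77% and 1.82% in Sham. On that basis both CKD libraries were lower and the difference had the opposite sign, -0.215 percentage points (exact permutation p = 0.333).

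Ratios between members within a library do not depend on its scaling, and 7 were compared. Each has an exact two-sided permutation test, which cannot go below p = 0.333, so none can pass the threshold and the values themselves are given. The Benjamini-Hochberg adjusted value over the 7 ratios was 0.389 for each of the 6 whose groups did not overlap in these exact tests. miR-10b-5p had 0.113 and 0.101 reads per read of miR-10a-5p in CKD, against 0.116 and 0.113 in Sham. This ratio moved least, by -0.10 on the log2 scale (-0.02 without CKD 2 and -0.18 without CKD 1), so the HoxB and HoxD copies of miR-10 kept nearly the same proportion of about 9 to 1.

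The ratio of miR-196a-5p to miR-196b-5p was 0.224 and 0.194 in CKD, against 0.476 and 0.422 in Sham. Both CKD libraries were lower and the mean log2 ratio fell by 1.11, a 2.15-fold decrease (exact permutation p = 0.333). Intervals from counting error reached up to 0.311 and 0.274 in the CKD libraries and down to 0.375 and 0.328 in the Sham libraries, so they did not overlap. miR-615-3p gave 4.19 and 2.79 reads per read of miR-196a-5p in CKD, against 1.19 and 1.42 in Sham. This ratio of entries encoded at least partly in HoxC was 2.63-fold higher in CKD, with no overlap.

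Of the 7 ratios, that of miR-10b-5p to miR-196a-5p, members of different families, differed most between the groups. miR-10b-5p exceeded miR-196a-5p 342-fold and 413-fold in CKD libraries, against 65.1-fold and 98.8-fold in Sham libraries, a 4.69-fold difference (2.23 on the log2 scale). miR-10a-5p exceeded miR-196b-5p 677-fold and 790-fold in CKD, against 267-fold and 368-fold in Sham, a 2.33-fold difference. In both ratios every CKD library was above every Sham library, so leaving out a library could not turn the sign. With 1 CPM added on both sides the log2 differences were 1.96 and 1.22.

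The arms of the Mir10a hairpin were also compared. miR-10a-5p outnumbered miR-10a-3p 118-fold and 148-fold in CKD, against 209.5-fold and 209.7-fold in Sham. The Sham ratios were almost equal and both CKD ratios were lower, by 0.67 on the log2 scale, with a fold of 1.59 between the groups. Intervals from counting error were 186 to 236 and 189 to 233 in Sham, far wider than the gap between the Sham ratios. In CKD they were 111 to 125 and 139 to 157. For the Mir10b hairpin the 5p to 3p ratio was 143 and 231 in CKD and 208 and 293 in Sham, where the groups overlapped (-0.44 on the log2 scale, exact permutation p = 0.667). That difference was -0.10 without CKD 1, -0.79 without CKD 2, -0.69 without Sham 1 and -0.20 without Sham 2. A limma fit of the arm ratio over 130 hairpins with both arms measured, added after these values were seen, called 5.38% of them in either direction, and neither miR-10 hairpin was among them. It gave adjusted p = 0.10 for Mir10a (SE 0.20) and 0.43 for Mir10b (SE 0.33) in limma. Across the 130 hairpins the median difference was 0.03, and 29.2% had both CKD ratios below both Sham ratios, as Mir10a did.

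**Figure D4:**
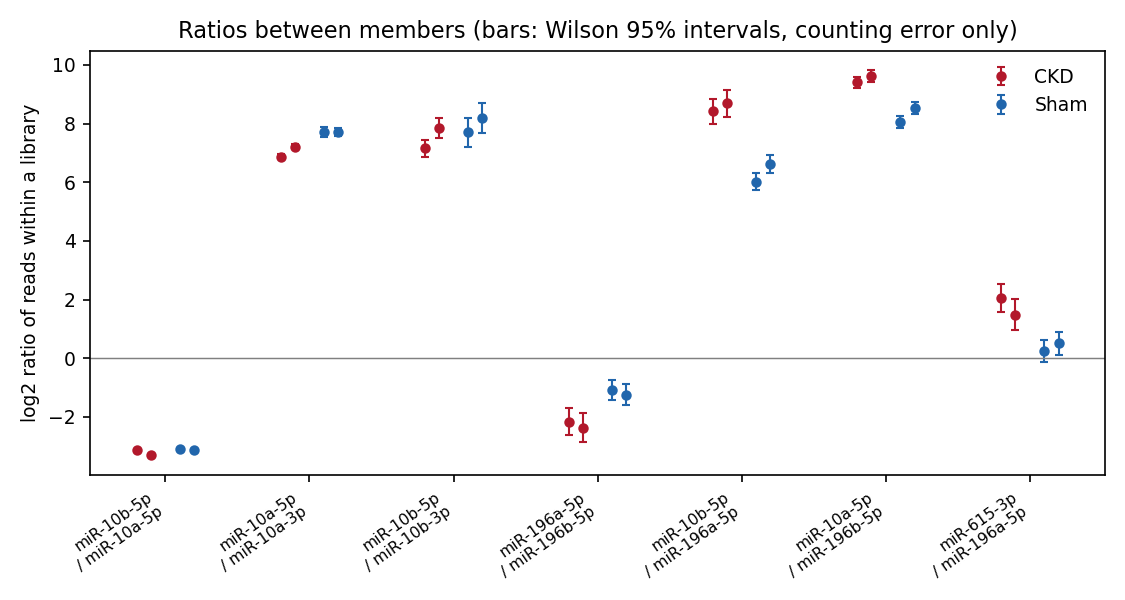
Log2 ratios of reads between members within each library, with CKD libraries left of Sham libraries and Wilson 95% intervals that cover counting error only. The ratio of miR-10b-5p to miR-10a-5p is nearly level, and that of miR-196a-5p to miR-196b-5p is lower in both CKD libraries, at ratios of 0.224 and 0.194 in CKD against 0.476 and 0.422 in Sham.

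Relatives outside the Hox clusters give a comparison by sequence. The miR-10 superfamily (miR-99a-5p, miR-99b-5p, miR-100-5p, miR-125a-5p and miR-125b-5p) had all 5 members called higher on the deposited scale and none after TMM scaling, with medians of 1.58 and -0.00 beside the 1.34 and -0.00 of all tested entries, of which 82.9% and 1.88% were called higher. Summed, these entries had 64947 and 70195 CPM in CKD, against 19108 and 26905 CPM in Sham. The let-7 family had all 9 members called higher on the deposited scale and none after TMM scaling, with medians of 1.21 and -0.37. Its member let-7a-5p holds the miR-196 seed shifted by 1 base, and the other members were not compared for it. Calls of both families on the deposited scale are thus near the background. No let-7 member had a TMM difference below -0.78, whereas miR-196a-5p and miR-196b-5p were at -2.13 and -1.53. The difference between the families was not tested.

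Some miRNAs outside the clusters had nearly the same profile over the 4 libraries, measured as the Euclidean distance between centred log2(CPM + 1) profiles among 249 candidates. Closest to miR-10a-5p were miR-467a-5p and miR-467b-5p, which hold identical values, at 0.05, against a median of 0.65 over the candidates, and then let-7b-5p at 0.12. miR-10b-5p was closest to miR-30e-3p at 0.09, miR-10a-3p to miR-361-5p at 0.03 and miR-10b-3p to miR-326-3p at 0.11. miR-196a-5p had miR-143-3p as its nearest entry, at 0.05 against a median of 2.53, although their levels differ by several orders of magnitude. That closeness depends on the 1 added to each value: without it, an alternative chosen after the values were seen, the distance was 0.30, and miR-5099 was nearer at 0.27. miR-10b-3p, also low, then had miR-744-5p as its nearest entry, while the other 5 members kept theirs. miR-196b-5p was closest to miR-381-3p at 0.21, and miR-615-3p to miR-140-3p at 0.30.

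Of all tested cell type markers, 33 of 40 (82.5%) were called higher in CKD on the deposited scale, beside 82.9% of all tested entries, so as a whole they did not stand apart on it. Their part in the members' values was not tested. The 4 smooth muscle markers, among them miR-143-3p, summed to 485612 and 488708 CPM in CKD, against 833695 and 774989 CPM in Sham, with 2 of 4 called higher and 1 lower. The 2 endothelial markers, miR-126a-3p and miR-126a-5p, summed to 9989 and 9767 CPM in CKD and 2899 and 3411 CPM in Sham, and both were called higher. The 6 leukocyte markers summed to 441 and 499 CPM in CKD and 85.4 and 234 CPM in Sham, with 5 called higher. For the 4 erythroid markers, all called higher, the sums were 1035 and 4804 CPM in CKD and 219 and 841 CPM in Sham. Sums of the 7 adipocyte markers, 6 of them called higher, were 3852 and 2869 CPM in CKD and 764 and 1281 CPM in Sham. Of the 7 striated muscle markers 4 were tested and 2 called higher, with sums of 1287 and 1026 CPM in CKD and 533 and 651 CPM in Sham. Called higher were also 5 of 6 epithelial markers (sums of 146 and 82.4 CPM in CKD, against 34.0 and 31.8 CPM in Sham), all 4 tested of 5 neural markers (155 and 190 CPM in CKD, against 41.8 and 58.1 CPM in Sham) and all 3 liver and kidney markers (672 and 451 CPM in CKD, against 98.5 and 164 CPM in Sham). After TMM scaling, 2 smooth muscle markers were called lower and no marker of the other lists was called. Among all these lists 1 marker was listed at 0 in a library, miR-206-3p in Sham 2. The aorta's smooth muscle and endothelial markers were all present, and in bulk tissue fewer cells of a type and less RNA per cell cannot be told apart.

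Full-length pairing with 5 members, all but the 3p forms of miR-10, was looked for in the 3′ untranslated regions of 39 mouse Hox genes (GRCm38, GENCODE M21, sense strand only). The site with the most base pairs to any of these 5 was in that of Hoxb8 on chromosome 11, at position 418 of the region, and it is shown because it pairs with nearly the whole of miR-196. Pairing is a description of sequence only, and no messenger RNA was measured in these libraries. Capitals mark the bases that form Watson-Crick pairs, on the first line with miR-196a-5p and on the second with miR-196b-5p.
Hoxb8 site with miR-196a-5p: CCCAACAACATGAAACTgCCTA
Hoxb8 site with miR-196b-5p: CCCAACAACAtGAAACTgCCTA

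All 22 bases of miR-196a-5p found a partner there, 21 in Watson-Crick pairs and 1 in a G:U pair. The 1-base change to miR-196b-5p left 20 Watson-Crick pairs, 1 G:U pair and 1 position with neither. Sites were ordered by their pairs, with a G:U pair counting less than a Watson-Crick pair, and only the first 2 for each member were kept. By this order the second-best Hox site for miR-196a-5p, in Hoxd8, had 15 Watson-Crick pairs. For miR-10a-5p the 2 sites kept, in Hoxa9 and Hoxb13, each had 14 Watson-Crick pairs of 23 bases and 2 G:U pairs. For miR-10b-5p the 2 sites kept, in Hoxa5 and Hoxc13, each had 15 of 23 and 1 G:U pair. Further sites that scored the same would not have been kept.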

How the data were processed

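The members and lists were chosen with earlier results of these data known. Per the labels' protocols, gel-purified RNA (18 to 30 nucleotides) received adaptors at both ends, and after amplification a band of 145 to 160 base pairs was recovered. The submitters' processing notes name Bowtie without a version and the build GRCm38. The deposited CPM have 2 decimals and sum to about 1000000 per library, and the labels do not state the unit. In 3 of the 4 files names stand above values in 1 column and were paired by position. Whole reads could be recovered from 100% of the values above 0, within 0.005 CPM. The files of 1 group were not copies of each other, since a chi-square test of their reads gave 367 per degree of freedom in CKD and 515 in Sham. It cannot tell separate pools from repeated preparations of the same pool, since amplified reads can exceed counting error in both cases.

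limma 3.58.1 (R 4.3.3) with a mean-variance trend was run on log2(CPM + 1) for entries whose mean was at least 1 CPM, CKD minus Sham, with a Benjamini-Hochberg threshold of 0.05 over all 479 entries and 2 residual degrees of freedom. TMM factors from the recovered reads of these entries were 1.81 and 1.66 in CKD and 0.479 and 0.696 in Sham. Shares and ratios used SciPy 1.17.1. Of the alternatives, edgeR 4.0.16 called 31 entries on the recovered reads (8 higher, 23 lower) and DESeq2 1.42.0 called 69, against 37 with limma after TMM scaling. All members are named, with the lists of relatives and markers and the 3 nearest entries of each member, of which the closest are given.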

Additional observations from a re-analysis of the deposited data

How the results depend on the processing

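With 2 libraries per group, counts of called members depend on single settings, and the cause was not tested. On the deposited scale 5 of 7 members were called. Median-of-ratios scaling, upper-quartile scaling and totals without miR-143-3p gave 2 each, where 32, 29 and 28 of all 479 entries were called. Leaving out the filter, raising it to a mean of 10 CPM (4 members tested) and summing near-identical members gave 3 each. Over all entries these settings called 313 of 1152, 241 of 265 and 399 of 477. Leaving out 1 library gave 0 to 5, with 0 without CKD 1, 2 without CKD 2, 4 without Sham 1 and 5 without Sham 2. Calls over all entries fell too, to 137 of 458, 247 of 459, 294 of 498 and 384 of 491 in that order, against 402 of 479. After TMM scaling 2 members were called. No filter gave 0, a minimum mean of 10 CPM and summed members 1 each, DESeq2 4, and leaving out 1 library 0 to 1. Without CKD 1 or CKD 2, limma called 0 of all entries after TMM scaling, with 92 and 109 at an unadjusted p under 0.05. DESeq2, which used its own median-of-ratios size factors and not the TMM factors, added miR-10b-5p (-0.50) and miR-615-3p (-1.33) to the lower calls. It called 48 of all 479 entries lower. Over all entries after TMM scaling, limma called 37 of 479 in the main fit and 18 of 1152 without the filter. It called 41 of 265 at a minimum mean of 10 CPM and 36 of 477 with summed members.

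Labels give the libraries of both groups the numbers 1 and 2 but no pairing. Deviations of same-numbered libraries had a correlation of 0.0999 over the tested entries, and with the replicate number as a block limma called 4 members on the deposited scale, without miR-10b-5p (adjusted p = 0.086), and 0 after TMM scaling (10 entries in all). The block adjusted p in limma was 0.063 for miR-196a-5p and 0.075 for miR-196b-5p after TMM scaling.

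Directions on the deposited scale turned under the scalings that remove the shared shift. Under median-of-ratios, upper-quartile and totals without miR-143-3p, miR-10a-5p was at -0.41, -0.54 and -0.18, miR-10b-5p at -0.51, -0.63 and -0.28 and miR-615-3p at -1.18, -1.29 and -0.98. Under the first and second of these miR-10b-3p was at -0.052 and -0.15. The share of reads turned to -0.215 points without miR-143-3p. Leaving out 1 library put miR-615-3p at -0.12 to 0.50 on the deposited scale. After TMM scaling miR-10b-3p was at -0.30 to 0.13, and at 0.12 with totals without miR-143-3p. All 7 ratios between members kept their direction in every alternative run. Where the groups did not overlap, leaving out a library or pairing by number could not have turned it. The ratio of miR-10b-5p to miR-10b-3p, where they overlapped, moved to -0.06 with 1 CPM added and to between -0.79 and -0.10 with 1 library left out. Depth limits miR-10b-3p and miR-196a-5p most, at 29 to 103 reads per library.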
